A study of Canis lupus familiaris with 28 samples.

Results

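The proteasome genes of canine blood were followed in 20 dogs with atopic dermatitis (AD dogs) and 8 healthy dogs. The genes were chosen by name, as every gene whose array name begins with PSM, a letter from A to G and a number, and each was read at its brightest probe. The rule found 43 genes with 66 probes among 43603 probes on the array, and the signal filter left 41 genes. A gene was left out where the median processed signals of both channels, in AD and in healthy dogs, were all at most 100. PSMA8, a testis form of an alpha subunit, and PSMB11, the thymus form of a catalytic subunit, had no median above 41.9 and 45.8, while the dimmest gene kept, PSMD5, reached 151. No probe carried the names PSMA1, PSMA4, PSMC6, PSMF1 or PSMG1, so these genes were not analysed here.

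The proteasome degrades proteins that carry ubiquitin chains. Its core particle is a stack of alpha and beta rings, and the beta rings hold the cutting sites (PSMB5, PSMB6 and PSMB7). The regulatory particle has a ring of ATPases (PSMC) that unfolds the substrate and non-ATPase subunits (PSMD) that bind ubiquitin, remove it or scaffold the particle. Interferon gamma induces PSMB8, PSMB9 and PSMB10, which replace PSMB5, PSMB6 and PSMB7 and form the immunoproteasome, and the PA28 cap genes PSME1 and PSME2. Leukocytes carry much immunoproteasome even at rest, and peptides it cuts are presented on MHC class I molecules. Chaperones (PSMG, and PSMD5, PSMD9 and PSMD10) help to assemble the particles and leave them.

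Both groups were privately owned dogs of various breeds. The AD dogs were sampled while clinical signs were visible, and the healthy dogs were blood donors. RNA from the blood of each dog, labelled with Cy5, was hybridized to 1 two-color canine array beside a common reference labelled with Cy3, a pool of RNA from 13 other healthy dogs. The labels name whole blood as the source, while the methods speak of RNA from the nuclear cells of peripheral blood, taken with a kit for animal blood. The labels name neither a treatment nor a genotype. The values are log2 ratios of dog to common reference, centered on the median of each array, so that 0 is the level of the reference pool relative to the median probe. A log2 fold change is the mean of AD dogs minus the mean of healthy dogs, tested with limma over the 30202 probes left by the filter.

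The dog's own signal was well above background at 84.3% to 90.3% of probes on healthy arrays and at 51.7% to 87.5% on AD arrays, 7 of which lay under 70%. There were 8 slides and 5 scan days, and each of them held dogs of 1 group only. Slide, scan day and disease therefore cannot be told apart by any value within a slide or day. The reference pool is 1 RNA for all arrays, yet in its channel 39.1% of probes had a limma adjusted p up to 0.085 between AD and healthy arrays, and so did 13 of the 41 proteasome genes (31.7%). Of these, 11 were higher on the arrays of AD dogs, and the differences over all 41 genes ran from -0.19 to 0.36 on the log2 scale. The brightest probe of every proteasome gene was well above background on all 28 arrays, except PSMD5 (25 of 28 arrays), and none was saturated on any array.

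The probes of the immunoproteasome genes are shown because the comparison of these genes rests on them. Positions are those the files give for the canFam3 build, and the files name no exon or intron. PSMB8 and PSMB9 are neighbours on chromosome 12, with 18138 bases between their probes, and PSME1 and PSME2 on chromosome 8, with 3456 bases between theirs. Both PSMB9 probes lie on the plus strand of chromosome 12 (2437889 to 2437948 and 2437901 to 2437960) and share the 48 bases in capitals.
PSMB9 brightest probe: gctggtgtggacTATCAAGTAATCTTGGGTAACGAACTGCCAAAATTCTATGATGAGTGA
PSMB9 other probe: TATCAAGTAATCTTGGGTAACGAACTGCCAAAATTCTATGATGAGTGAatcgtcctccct
Both PSME2 probes lie on the minus strand of chromosome 8 (4137275 to 4137334 and 4137292 to 4137351). They overlap by 43 bases and differ there at the 2 bases in capitals, G36A and A47G, counted from 1 at the 5′ end of the probe shown as the other.
PSME2 other probe: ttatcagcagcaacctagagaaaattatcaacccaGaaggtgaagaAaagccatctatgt
PSME2 brightest probe: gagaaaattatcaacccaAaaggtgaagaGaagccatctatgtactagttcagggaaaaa
The PSMB8 probe lies on the minus strand of chromosome 12 (2419692 to 2419751). The PSMB10 probe lies on the plus strand of chromosome 5 and spans 181 bases (81563277 to 81563457), and the PSME1 probe lies on the plus strand of chromosome 8 and spans 234 bases (4133586 to 4133819), more than the 60 bases of a probe.
PSMB8 probe: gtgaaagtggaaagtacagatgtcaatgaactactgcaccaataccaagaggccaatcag
PSMB10 probe: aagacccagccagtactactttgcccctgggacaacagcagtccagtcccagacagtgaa
PSME1 probe: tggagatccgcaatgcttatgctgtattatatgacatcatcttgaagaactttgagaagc

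Whether the blood of AD dogs carried more or less proteasome mRNA was asked first. With the threshold of the methods, an adjusted p up to 0.085, limma called 0 of the 41 genes and 0% of the 30202 probes, and the smallest adjusted p of a proteasome gene was 0.797 (PSME1). The paper reports differential transcripts at this threshold, which were not reproduced here. Its filter left fewer transcripts than the 30202 probes kept here, so the 2 procedures are not the same. At an unadjusted p under 0.05 there was 1 gene of 41 (2.44%), PSME1, where 6.12% of all probes passed, 1.65% as higher and 4.46% as lower in AD dogs. The log2 fold changes of the 41 genes ran from -0.23 to 0.39 with a median of -0.027, beside -0.0096 over all probes. They were below 0 for 27 genes (65.9%), as for 52.1% of all probes. No gene separated the groups. Between 7 (PSME3) and 20 (PSMB7 and PSMD6) of the 20 AD dogs lay within the range of the healthy dogs.

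**Figure D1:**
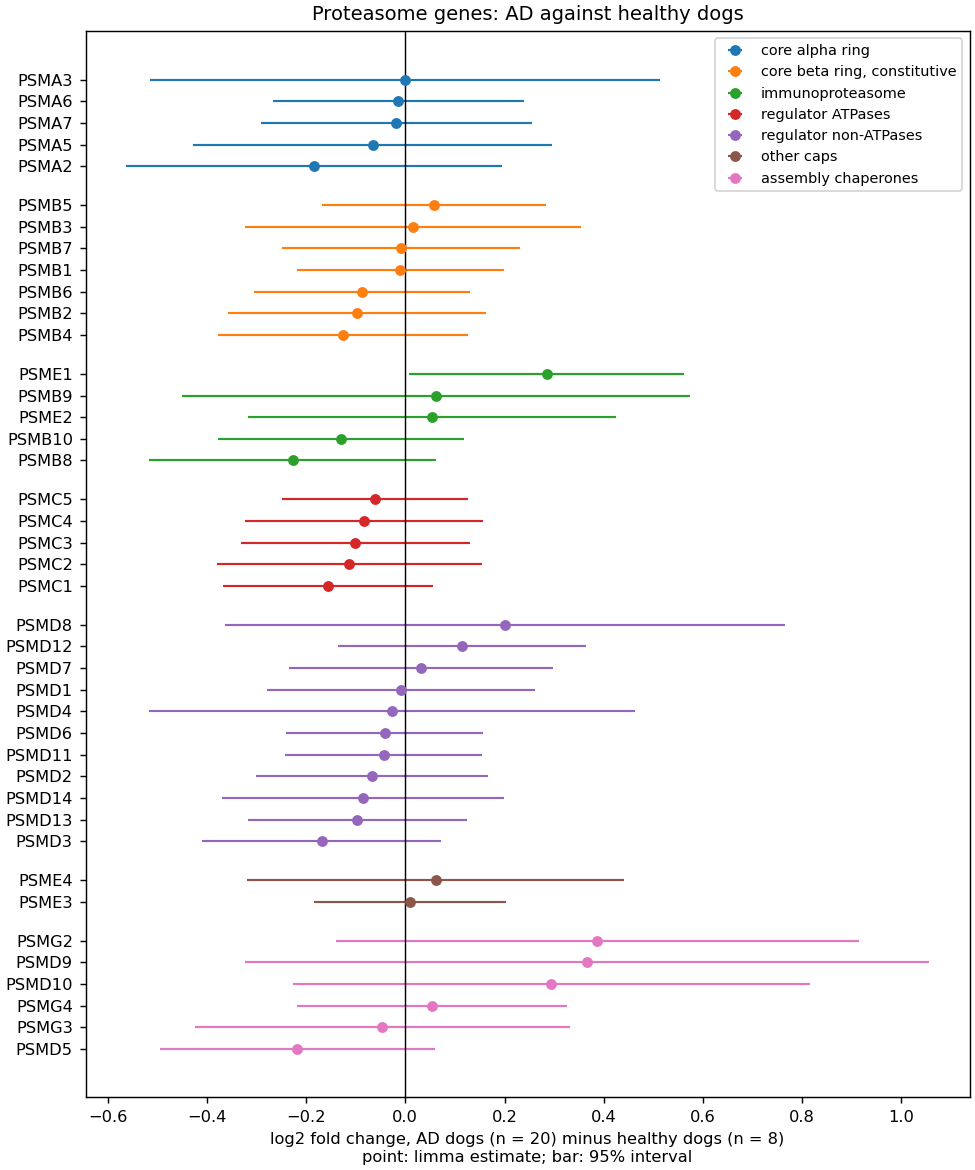
Log2 fold change of the 41 proteasome genes between 20 AD dogs and 8 healthy dogs (x axis), grouped by class, with the 95% interval from limma as bars. The interval of PSME1 alone leaves out 0 (0.0081 to 0.56, with no adjustment), and the intervals of PSMD9, PSMG2, PSMD10 and PSMD8 are among the widest.

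None of the catalytic immunoproteasome genes differed between the groups beyond the spread between dogs. PSMB8, which takes the place of PSMB5, had log2 ratios from -0.75 to 0.49 in AD dogs (median -0.13) and from -0.39 to 0.56 in healthy dogs (median 0.12). The ranges overlapped, with 15 of 20 AD dogs below the healthy mean and 16 within the healthy range. Its log2 fold change was -0.23 (SE 0.14, limma adjusted p = 0.866), the lowest of the 41 genes. On the arrays of AD dogs the common reference itself was 0.25 higher at this probe (adjusted p = 0.0205 by limma), and with the dog's channel alone the fold change of PSMB8 was 0.0038.
PSMB10, which takes the place of PSMB7, ran from -0.66 to 0.54 in AD dogs (median -0.040) and from -0.30 to 0.46 in healthy dogs (median 0.061). Again 15 AD dogs lay below the healthy mean, and the log2 fold change was -0.13 (SE 0.12, limma adjusted p = 0.873).
PSMB9, which takes the place of PSMB6, ran from -2.74 to 0.50 in AD dogs (median -0.086) and from -0.88 to 0.30 in healthy dogs (median -0.29). The groups overlapped except for 1 AD dog far below and 2 AD dogs above the healthy range. The log2 fold change was 0.062 (SE 0.25, limma adjusted p = 0.974). It was 0.19 without the lowest dog (AD dog 7), and its sign turned under 8 of 25 alternatives, with values from -0.34 to 0.33.

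The lowest PSMB9 value belonged to AD dog 7, and the other 19 AD dogs lay between -0.77 and 0.50. The overlapping second probe gave -2.72 in this dog, where the other AD dogs ran from -0.83 to 0.43. On that array the processed signal at the brightest PSMB9 probe was 6473 for the dog and 41505 for the common reference, whose median over all arrays was 34121. AD dog 7 also had the lowest PSMA3, an alpha ring subunit, at -1.79 and at -1.91 by its other probe. PSMB8 in the same dog was -0.29 and PSMB10 0.053, within the range of the other AD dogs. PSME4, the PA200 cap, was at -1.50 there by its brightest probe, but its 3 other probes gave values between -0.039 and 0.13.

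Of the PA28 cap genes, PSME1 had the smallest p of the 41 genes. It ran from -0.092 to 1.06 in AD dogs (median 0.27) and from -0.34 to 0.60 in healthy dogs (median 0.080). AD dogs lay above the healthy mean in 17 of 20 cases, yet 15 lay within the healthy range. The log2 fold change was 0.28 (SE 0.14, unadjusted p = 0.0440 and adjusted p = 0.797 by limma). With slide or scan day as a random block, no proteasome gene had an unadjusted p under 0.05 (the smallest were 0.0804 and 0.0599 by limma). A second PSME1 probe gave 0.27 (limma adjusted p = 0.851) and followed the first with r = 0.94 over AD dogs. With 1 slide of healthy dogs left out, the log2 fold change of PSME1 was 0.14 without slide 2 and 0.43 without slide 3. The common reference was 0.16 higher at this probe on the arrays of AD dogs (adjusted p = 0.0895 by limma).
PSME2 ran from -1.18 to 0.70 in AD dogs (median -0.28) and from -0.88 to 0.047 in healthy dogs (median -0.23). AD dogs were spread to both sides of the healthy range, 10 above and 10 below the healthy mean, and the log2 fold change was 0.054 (SE 0.18, limma adjusted p = 0.968). The other PSME2 probe, 2 bases apart in the overlap, followed the first with r = 0.99 in AD and in healthy dogs.

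**Figure D2:**
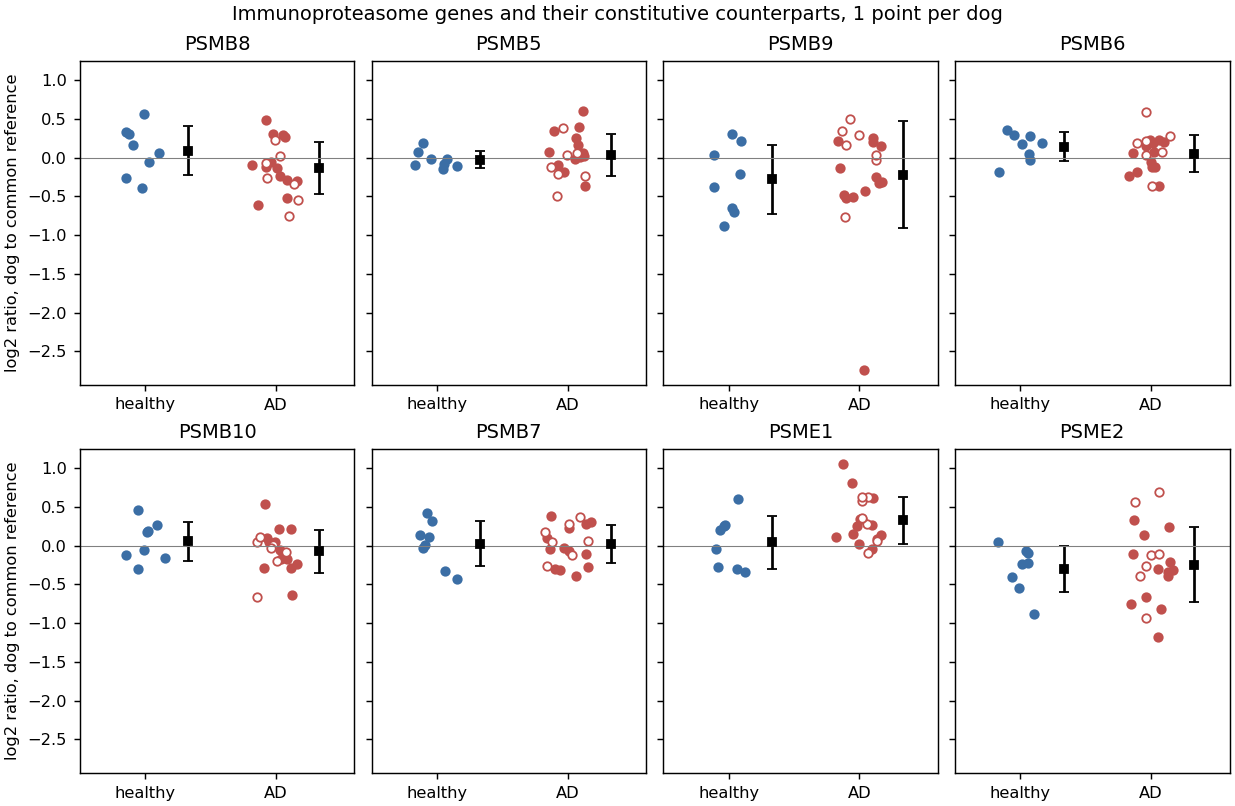
Log2 ratio of dog to common reference (y axis) of the immunoproteasome genes and of PSMB5, PSMB6 and PSMB7, with 1 point per dog in 8 healthy and 20 AD dogs, and squares with bars for the mean and SD. Open points are the 7 AD arrays with under 70% of probes well above background, and the lowest PSMB9 point, at -2.74, is AD dog 7.

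Because an immunoproteasome subunit takes the place of a constitutive one, the difference of their log2 ratios was compared within each dog. PSMB8 minus PSMB5 was -0.17 ± 0.48 in AD dogs (SD, n = 20) and 0.12 ± 0.29 in healthy dogs (SD, n = 8). AD dogs ran from -1.01 to 0.67 and healthy dogs from -0.29 to 0.45, with 14 of 20 AD dogs below the healthy mean. The groups differed by -0.28, which a two-sided exact permutation test over the dogs did not separate from the spread (p = 0.134, adjusted p over the 3 differences = 0.403).
PSMB10 minus PSMB7 was -0.090 ± 0.25 in AD dogs (SD, n = 20) and 0.030 ± 0.45 in healthy dogs (SD, n = 8), a difference of -0.12 by the same exact test (p = 0.377, adjusted p = 0.566). PSMB9 minus PSMB6 was -0.27 ± 0.61 in AD dogs (SD, n = 20) and -0.42 ± 0.47 in healthy dogs (SD, n = 8), a difference of 0.15 by the exact test (p = 0.582, adjusted p = 0.582). The last difference rested on few dogs, since it was -0.15 without slide 2 and 0.45 without slide 3, both of healthy dogs. Without AD dog 7, a setting chosen after the data were seen, it was 0.28 (exact permutation p = 0.0501, adjusted p = 0.15).

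The constitutive core genes lay close to 0 between the groups. All 5 alpha ring genes had a log2 fold change below 0, from -0.18 (PSMA2) to -0.0012 (PSMA3), with adjusted p of at least 0.879 by limma, but PSMA3 was above 0 with the dog's channel alone (0.030), and PSMA3, PSMA6 and PSMA7 were with normexp and loess (PSMA3 at 0.080 and the other two closer to 0). The 7 beta ring genes ran from -0.13 (PSMB4) to 0.058 (PSMB5), 5 of them below 0, of which PSMB1, PSMB2 and PSMB7 were above 0 with the dog's channel alone. PSMB5, the counterpart of PSMB8, varied little among healthy dogs, from -0.14 to 0.18, while AD dogs ran from -0.50 to 0.60. The cutting subunits PSMB6 and PSMB7 had log2 fold changes of -0.088 and -0.0093. The mean of the 12 core genes was -0.15 ± 0.26 in AD dogs (SD, n = 20) and -0.11 ± 0.15 in healthy dogs (SD, n = 8), and the range of AD dogs, -0.51 to 0.36, held that of healthy dogs.

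In the regulatory particle, all 5 ATPase genes had a log2 fold change below 0, from -0.16 (PSMC1) to -0.060 (PSMC5), though not with the dog's channel alone. None had an unadjusted p under 0.05, and the smallest was 0.145 (PSMC1). With that channel PSMC1, PSMC3 and PSMC5 lay above 0, at 0.067, 0.24 and 0.19, and the common reference was higher at these probes on the arrays of AD dogs by 0.25, 0.36 and 0.26. The 11 non-ATPase genes ran from -0.17 (PSMD3) to 0.20 (PSMD8), 8 of them below 0, of which PSMD11 and PSMD13 were above 0 with the dog's channel alone and PSMD1 and PSMD14 with normexp and loess. PSMD14, the enzyme that removes ubiquitin chains from the substrate, had -0.085, PSMD2 and PSMD1, the scaffold subunits, -0.067 and -0.0083, and PSMD4, a ubiquitin receptor, -0.027. The alternative caps PSME3 (PA28 gamma) and PSME4 had log2 fold changes of 0.0093 and 0.061.

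The assembly chaperones held the 3 highest log2 fold changes of the 41 genes and, with PSMD5, the second lowest. PSMG2 and PSMD9, which act in the assembly of the core and of the base, had 0.39 (SE 0.26) and 0.37 (SE 0.34), and PSMD10 (gankyrin) had 0.29 (SE 0.26). PSMD5 had -0.22 (SE 0.14), PSMG3 -0.046 and PSMG4 0.054. With limma adjusted p from 0.866 to 0.974, none of the 6 differed beyond the spread between dogs. PSMG2 lay between -0.98 and 1.25 in AD dogs (median 0.30) and between -0.83 and 0.86 in healthy dogs (median -0.046), and 14 of 20 AD dogs exceeded the healthy mean. PSMD9 lay between -1.29 and 2.47 in AD dogs (median 0.53) and between -0.98 and 1.56 in healthy dogs (median -0.047). For both genes most AD dogs were above the healthy mean, but 13 (PSMG2) and 18 (PSMD9) lay within the healthy range.

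Variation between dogs was larger than variation between groups. For 34 of 41 genes the SD was larger in AD than in healthy dogs (82.9%), as it was for 77.6% of all probes, and for 29 genes (70.7%, beside 61.6% of probes) without the 7 arrays under 70%. The median SD of the 41 genes was 0.31 in AD and 0.26 in healthy dogs, while that of all probes was 0.43 and 0.30. PSMD9 had the largest SD of the proteasome genes, 0.87 in AD and 0.84 in healthy dogs, at percentile 95.6 and 98.4 of all probes. PSMD6, a regulatory subunit, had the smallest in AD dogs, 0.16. AD dog 17 had the highest value of the AD dogs at 13 of the 41 genes, AD dog 14 the lowest at 8, AD dog 7 the lowest at 7 and AD dog 9 the highest at 8. Among healthy dogs, dog 5 had the lowest value at 15 genes.

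Across the AD dogs, the proteasome genes formed opposed sets. Over the 820 pairs of genes, r ran from -0.79 to 0.94 with a median of 0.22, and 61.2% of pairs were positive. The genes with r over 0.5 to PSMD9, the gene of largest spread, were 5 of 40 (12.5%, beside 20.2% of all genes tested), PSMD8 (0.93), PSMG2 (0.89), PSMD10 (0.80), PSME1 (0.75) and PSMD4 (0.72). Since these 6 genes were grouped by their values in AD dogs, the values there are a description with no test. Of the 595 pairs among the other 35 genes 77.6% were positive (median r = 0.38), and of the 210 pairs between the sets 185 were negative (median r = -0.41). With slide means removed, these medians were 0.34 and -0.48.
The strongest negative partners of PSMD9 in AD dogs were the chaperone PSMG4 (r = -0.79), the alpha subunit PSMA7 (-0.76), the ATPase PSMC4 (-0.74) and the beta subunit PSMB4 (-0.70). At r under -0.5 to PSMD9 there were 21 of the 40 other proteasome genes (52.5%), beside 21.5% of all genes tested.

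**Figure D3:**
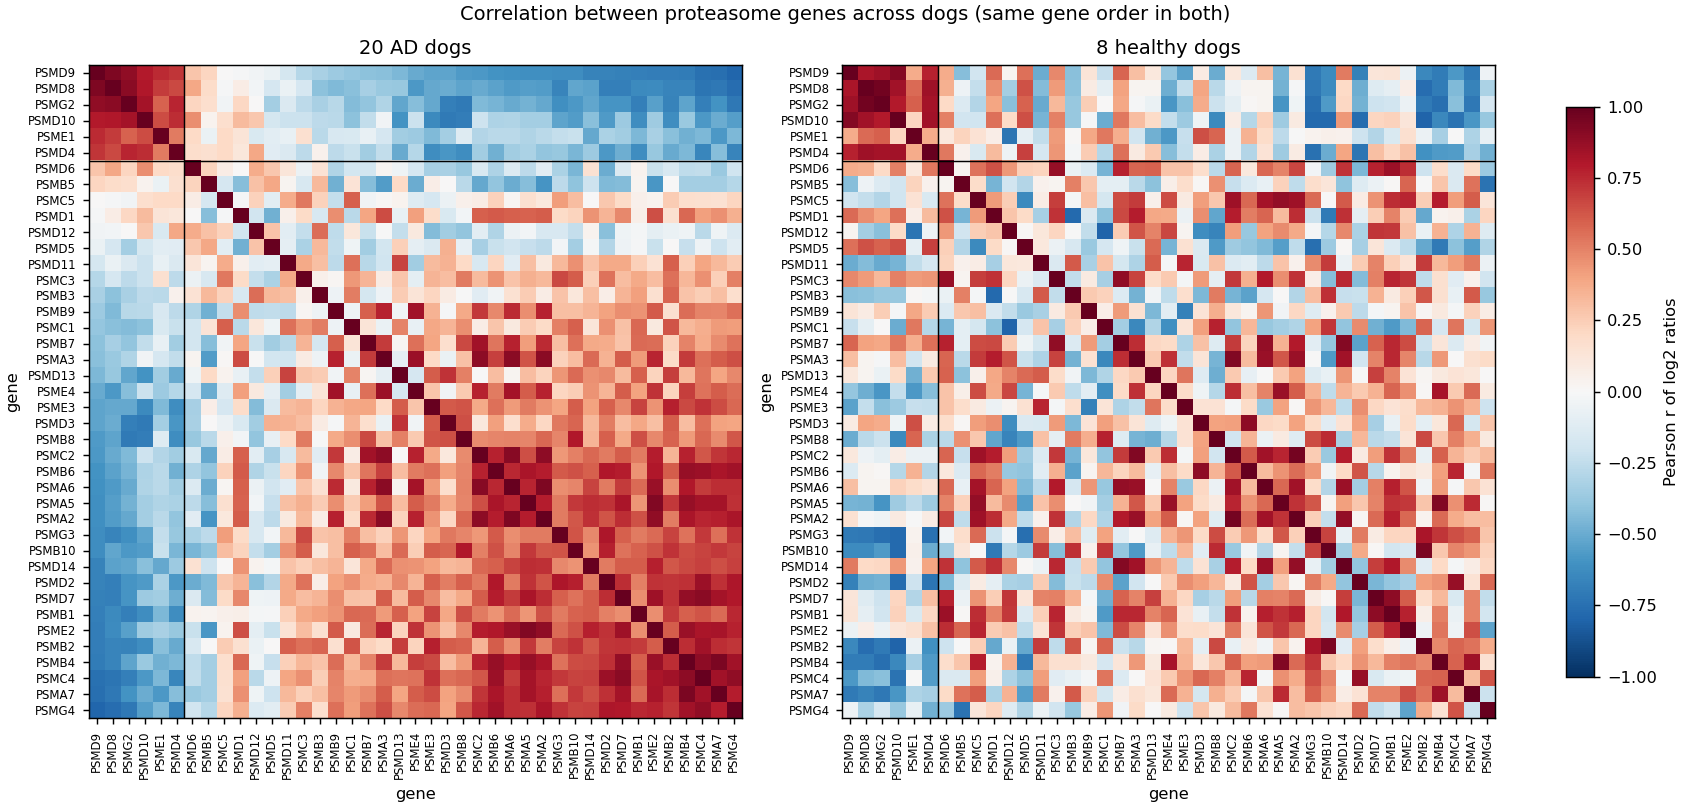
Pearson r of log2 ratios between the 41 proteasome genes across 20 AD dogs (left) and 8 healthy dogs (right), with the genes on both axes ordered by r to PSMD9 in AD dogs and lines that set off the 6 genes PSMD9 to PSMD4. The upper left block is positive in both groups (15 of 15 pairs), while the negative band beside it holds 185 of 210 pairs in AD dogs and 122 of 210 in healthy dogs.

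All 15 pairs within the set of 6 were also positive over the 8 healthy dogs (r from 0.22 to 0.97, median 0.82). PSMD9 followed PSMD10 (r = 0.92, rho = 0.79), PSMG2 (r = 0.85, rho = 0.79), PSMD8 (r = 0.82, rho = 0.69) and PSMD4 (r = 0.77, rho = 0.64), and with PSME1 r was 0.37 (rho = 0.62). Leaving out the 2 dogs farthest from the PSMD9 median gave r = 0.60 with PSMD10, 0.75 with PSMG2, 0.64 with PSMD8 and 0.42 with PSMD4, all lower than over 8 dogs, but 0.83 with PSME1. Pairs between the sets were negative in 122 of 210 cases (median r = -0.066), and 8 of 40 genes had r under -0.5 to PSMD9 (20.0%, beside 19.8% of all genes tested). With slide means removed, r of PSMD9 in AD dogs was 0.93 with PSMD8, 0.89 with PSMG2, 0.84 with PSMD10, 0.68 with PSMD4 and 0.86 with PSME1.

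The members of this set also followed the markers of red cells and reticulocytes. Of 9 markers listed, 6 were measured (ALAS2, AHSP, BPGM, SLC4A1, EPB42 and CA1), and HBA, HBB and HBM were not found under these names. The mean log2 ratio of the 6 ran from -1.36 to 1.33 in AD dogs (median 0.45) and from -1.31 to 1.08 in healthy dogs (median -0.16). The ranges overlapped almost whole, and 0 of the 6 markers had an unadjusted p under 0.05 between the groups by limma. PSMD9 followed this mean with r = 0.88 (rho = 0.90) over 20 AD dogs and r = 0.98 (rho = 0.98) over 8 healthy dogs. Leaving out the 2 dogs farthest from the PSMD9 median gave r = 0.89 and 0.98, and with slide means removed 0.87 and 0.99.
PSMG2 (r = 0.94), PSMD8 (0.93), PSMD10 (0.87), PSMD4 (0.74) and PSME1 (0.58) followed the same mean in AD dogs, with 0.87, 0.80, 0.86, 0.78 and 0.44 in healthy dogs. PSMB8 and PSMB1 ran most against it in AD dogs (r = -0.71 and -0.70), and in healthy dogs r was -0.38 and 0.11. Single markers followed PSMD9 in healthy dogs with r from 0.90 (AHSP) to 0.97 (BPGM), except CA1 at 0.17. These relations were noticed after the values were seen and are given without a test. The 5 genes beside PSMD9 were picked by r to PSMD9 in AD dogs, so their r with the mean there is partly set by that choice. An r over 0.5 to PSMD9 was held by 12.5% of the other proteasome genes and 20.2% of all genes tested, so it is not particular to proteasome genes. Fewer cells of a type and less RNA per cell cannot be told apart in blood RNA, and the part of red cell precursors in these values was not tested. The share of probes well above background had r = -0.062 with PSMD9 over AD dogs and -0.21 with the marker mean.

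**Figure D4:**
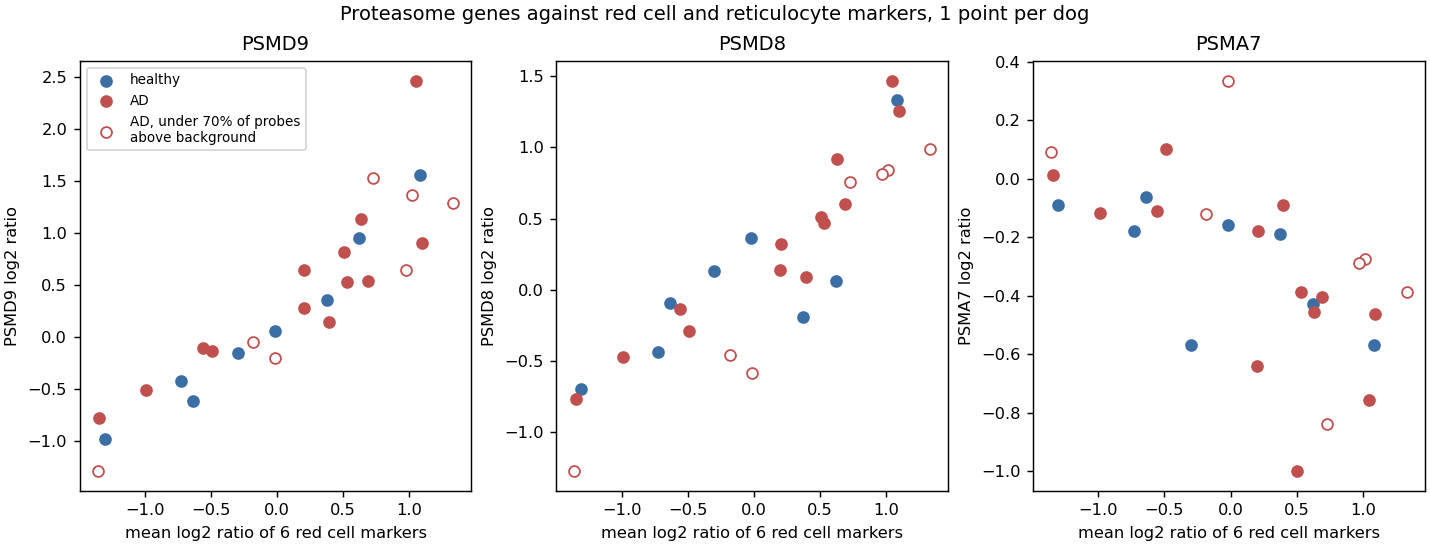
Log2 ratio of PSMD9, PSMD8 and PSMA7 (y axes) against the mean log2 ratio of 6 red cell and reticulocyte markers (x axis), 1 point per dog in 20 AD and 8 healthy dogs. PSMD9 and PSMD8 lie higher in dogs with more marker signal (r = 0.88 and 0.93 in AD dogs), PSMA7 lies lower (r = -0.61), and the open points are the 7 AD arrays with under 70% of probes well above background.

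PSMD8, a subunit of the lid, is shown with its probe because it was the subunit closest to PSMD9. The probe spans 1322 bases on the minus strand of chromosome 1 (114620849 to 114622170), more than its own 60 bases.
PSMD8 probe: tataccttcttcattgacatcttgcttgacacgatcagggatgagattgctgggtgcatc
PSMD8 ran from -1.27 to 1.47 in AD dogs (median 0.40) and from -0.70 to 1.33 in healthy dogs (median -0.016). Its lowest and highest AD values were in AD dogs 18 and 6, the same dogs as for PSMD9, and in healthy dogs the extremes of both genes were dogs 2 and 1. PSMD10 ran from -0.59 to 1.71 and PSMD4 from -1.55 to 1.09 in AD dogs, beside -0.60 to 1.28 and -0.60 to 0.85 in healthy dogs.

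Pairs of immunoproteasome genes were compared across dogs in a family of 14 correlations, 7 pairs in each group. PSMB8 and PSMB10, which lie on different chromosomes, went together in AD dogs (r = 0.80, rho = 0.76, n = 20, permutation adjusted p = 0.00042 and 0.00091). Leaving out the 2 dogs farthest from the PSMB8 median gave r = 0.79, and with slide means removed it was 0.75. In healthy dogs r was 0.75 and rho 0.76 (n = 8, exact permutation p = 0.0369 and 0.0368, adjusted p = 0.13 and 0.0859). Whether the groups differ in r was not tested. The p values are against r = 0, while the median r in AD dogs over the 595 pairs outside the PSMD9 set was 0.38. PSMB10 was nearly as close there to PSMD2 (r = 0.78) and PSMB2 (0.72), but not to PSMB5 (-0.40).
In healthy dogs r of PSMB9 was 0.36 with PSMB8 (rho = 0.29), 0.045 with PSMB10 (rho = 0.071) and 0.026 with PSMB6 (rho = 0.024). Among AD dogs, r of PSMB9 with these genes depended much on 1 dog, AD dog 7. In AD dogs r was 0.38 with PSMB8 (rho = 0.57) and 0.30 with PSMB10 (rho = 0.62), with permutation adjusted p of 0.283 and 0.38 for r and 0.0368 and 0.0186 for rho. Without AD dog 7, a setting chosen after the data were seen, r was 0.57 with PSMB8 and 0.77 with PSMB10 (permutation adjusted p = 0.0328 and 0.00049). PSMB6 and PSMB9 had r = 0.48 and rho = 0.78 (permutation adjusted p = 0.13 and 0.00091), and r = 0.76 without AD dog 7. With slide means removed and AD dog 7 kept, r was 0.27 for PSMB6 and PSMB9, 0.43 for PSMB8 and PSMB9 and 0.28 for PSMB9 and PSMB10. With slide means removed and without AD dog 7, r of these pairs was 0.54, 0.71 and 0.80.
PSMB7 and PSMB10 had r = 0.55 in AD dogs (rho = 0.54, permutation adjusted p = 0.0777 and 0.0448) and r = 0.34 with slide means removed, while PSMB5 and PSMB8 had r = -0.27 (rho = -0.34, permutation adjusted p = 0.406 and 0.294) and r = -0.11 with slide means removed. The PA28 genes PSME1 and PSME2, whose products form 1 ring, had r = -0.32 in AD dogs (rho = -0.20, permutation adjusted p = 0.38 and 0.618) and r = -0.45 with slide means removed. In healthy dogs, none of the 7 pairs passed an adjusted p of 0.05 by the exact permutation test. With 8 dogs only r of large size can pass.

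The genes whose pattern was most like the mean of the 5 immunoproteasome genes over the 20 AD dogs, among 10944 named genes, were EZR (r = 0.88), ATAD2 (0.87), EEF1A1 (0.86), FASTKD2 (0.86), GMFB (0.86), TRIP12 (0.86), RPL10A (0.85), FAM26F (0.85), PMPCB (0.85) and GLMN (0.85). Over the 8 healthy dogs, which were not used to pick them, r was 0.76 for FAM26F and between -0.56 and 0.086 for the other 9.

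Genes that work with the proteasome were read in the same fit. Of 34 names listed for ubiquitin and proteasome partners, 25 were measured. Some unmatched names were other names of measured genes, such as UFD1 for UFD1L. The median log2 fold change was 0.054, and 0 of the measured genes had an unadjusted p under 0.05 by limma. The smallest p were those of UBA6, a ubiquitin activating enzyme (-0.27, SE 0.14), UBE3C, a ubiquitin ligase at the proteasome (0.24, SE 0.12), and VCP, the segregase that delivers substrates (-0.23, SE 0.13). POMP, the chaperone of the core, had 0.10 (SE 0.16) and NFE2L1, the transcription factor of proteasome genes, -0.18 (SE 0.11).
Of 20 names listed for MHC class I presentation, 13 were measured, with a median of -0.088 and again 0 at an unadjusted p under 0.05. Here too some unmatched names were other spellings of measured genes, such as DLA-88 for DLA88. The class I genes DLA-12 and DLA88 had -0.25 (SE 0.15) and -0.15 (SE 0.13), and TAPBP (tapasin), the bridge to the peptide transporter, 0.18 (SE 0.17). TAP2, a subunit of that transporter, had -0.15 (SE 0.18), and TAP1 was not found under this name. The mean of the 13 genes ran against PSMD9 in AD dogs (r = -0.79) and in healthy dogs (r = -0.85), a relation also seen after the fact and not tested. Not every gene did so in both groups. In AD and healthy dogs, r was -0.76 and -0.77 for B2M, but 0.71 and 0.16 for TAPBP. It was 0.32 and -0.33 for TAPBPL, and -0.73 and 0.28 for DLA-79.
Of 28 genes of interferon signalling and response, 23 were measured, with a median of 0.0079. While 6.12% of all probes had an unadjusted p under 0.05 by limma, 1 of these 23 genes did. It was IRF9, a transcription factor of the interferon response, at -0.44 (SE 0.16, limma adjusted p = 0.530), with 19 of 20 AD dogs below the healthy mean. IRF1, an activator of immunoproteasome genes, had 0.31 (SE 0.17), and STAT2 had -0.26 (SE 0.19).

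The mean log2 ratio of the markers of each white cell type and of platelets overlapped between the groups. With PSMD9 these means had r from -0.21 (B cells) to 0.27 (neutrophils) over AD dogs, and from -0.80 (platelets) to 0.33 (T cells) over healthy dogs. T cell markers (8 of 9 measured) ran from -0.60 to 0.47 in AD and from -0.60 to 0.28 in healthy dogs, neutrophil markers (8 of 8) from -0.32 to 1.21 and from -0.42 to 0.41, and monocyte markers (5 of 5) from -0.77 to 0.50 and from -0.43 to 0.52. B cell markers (6 of 6) ran from -1.03 to 0.46 and from -0.48 to 0.20, and cytotoxic lymphocyte markers (4 of 6) from -0.88 to 1.13 and from -0.81 to 1.19. Platelet markers (4 of 6) ran from -1.07 to 0.68 and from -0.84 to 0.77, and eosinophil markers (2 of 5) from -0.79 to 0.81 and from -0.85 to 0.83. While 6.12% of all probes had an unadjusted p under 0.05 between the groups by limma, 1 of all markers did. This was the cytotoxic gene GZMK at -0.56 (SE 0.24, limma adjusted p = 0.684).

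Several genes had more than 1 probe. For 15 genes with 22 further probes, r with the brightest probe over AD dogs was above 0.5 for 17 probes, among them PSMB9 (r = 1.00), PSMD9 (0.99 and 0.88), PSMD10 (0.99), PSMA3 (0.99) and PSME2 (0.99). The 3 further probes of PSME4 went against the brightest, with r of -0.11, -0.28 and -0.38 over AD dogs, but with it over healthy dogs (0.86, 0.76 and 0.60). The value of PSME4 therefore depends on the probe. No further probe had an unadjusted p under 0.05, and their log2 fold changes ran from -0.20 to 0.50, the highest at a further probe of PSMD9.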

How the data were processed

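The authors extracted the signals of 28 two-color arrays with Agilent Feature Extraction (10.7.3.1 per the methods and the submitters' processing notes, 10.10.1.1 per the file headers), with background subtraction and Lowess dye normalization. The deposited files hold intensity per spot and channel and a log10 ratio. Deposited marks (coded as other values) flag outliers and spots well above background. The authors' table repeats the log10 ratio for each array. Annotation is that of the array design on canFam3, and all 43 symbols are current RefSeq symbols.

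Of the spots, 43803 are no controls and were used. Outlier-marked spots were set to missing, spots of a probe were averaged, and probes whose 4 medians did not exceed 100 were removed. The log2 ratio of processed signals was centered on the array median. R 4.3.3 with limma 3.58.1 (lmFit, eBayes) and Benjamini-Hochberg adjustment over 30202 probes gave the tests, at 0.085 as in the methods and at 0.05. Permutations (100000 in AD dogs, all arrangements in healthy dogs, all 3108105 regroupings for differences) and figures used Python 3.11.15 with numpy, scipy and matplotlib. All tests are two-sided. On simulated data for AD against healthy dogs over 30202 probes, 85% of the changed probes were recovered at a log2 change of 1 and 25% at 0.5. In the same data 11 unchanged probes were called. The simulated probes were independent, had the same SD in both groups and held no slide or scan day effect. The recovery in the real arrays can therefore differ from these shares.

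The genes and lists were chosen with earlier results of these data known. All PSM genes are named, with the 3 genes of smallest p and fixed genes of each partner list, and the 10 genes most like the immunoproteasome mean. GZMK and the PSMD9 set were chosen after values were seen. Some listed genes are not reported here and were left out of the list counts and means. Nothing in the labels says more of the samples than 1 dog per array. Signal over background and the number of arrays limit the precision.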

Additional observations from a re-analysis of the deposited data

Results flagged for a closer look

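Among the 8 healthy dogs, 45 values were checked for a dog far from the rest (the 41 genes, the 3 subunit differences and the red cell marker mean), and 3 had a gap beyond Dixon's critical value for 8 samples. Chance flags about 1 in 20. PSMB1, a beta ring subunit, was at -0.42 in healthy dog 5, with the other healthy dogs between 0.040 and 0.25 (gap 0.688 of the range). PSMD7, a subunit of the lid, was at -0.63 in the same dog, with the others between -0.14 and 0.076 (gap 0.697). PSMD11, also of the regulatory particle, was at 0.13 in healthy dog 2, with the others between -0.27 and -0.087 (gap 0.537).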

How the results depend on the processing

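The 25 alternatives kept the count of proteasome genes at an adjusted p up to 0.085 at 0, except that PSME1 passed with the dog's channel alone (1 gene, limma adjusted p = 0.0391). That channel is not set against the common reference, which was itself 0.16 higher at this probe on the arrays of AD dogs. Slide and scan day cannot be told apart from disease there. Over all probes the count was 3 of 43603 with no filter on signal, 1251 of 30202 with the dog's channel alone and 849 of 30202 with array weights. The count of proteasome genes at an unadjusted p under 0.05, 1 in the report, was 0 with no filter, with centering on all probes, with slide or scan day as a random block, with the mean of all probes of a gene, without slide 2, 4, 6 or 7, without the last scan day and without the 7 arrays under 70%. It was 2 with the dog's channel alone and without slide 5, 4 with array weights and 5 with dog number as a replicate block. Beside these, the count over all 30202 probes at an unadjusted p under 0.05 was 1847 in the report. It rose to 5879 with the dog's channel alone, 5701 with array weights and 5177 with dog number, so the rise was not particular to the proteasome genes. The dog numbers pair no samples: same-numbered dogs correlated with r from -0.36 to 0.42, and 0 of 8 correlated best with their own number.

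Of the 41 genes, 15 kept the sign of their log2 fold change under all 25 alternatives and 26 turned it under at least 1. PSMB9 minus PSMB6 was -0.15 without slide 2. Of the 7 planned pairs, 1 passed an adjusted p of 0.05 by r in AD dogs as reported, and 5 did by rho. By r there were 3 with normexp and loess and with the dog's channel alone, 2 without slide 2 or 3 (where the family was the AD dogs alone), 4 without slide 4 and 5 without AD dog 7. In healthy dogs 0 passed as reported, 1 with normexp and loess and 2 with the dog's channel alone. In the reference channel, 11807 of 30202 probes and 13 of the 41 proteasome genes were called as reported. With array medians alone the counts were 19078 probes and 32 proteasome genes, and without the last scan day 5502 and 8. The cause of these moves was not tested. The settings without AD dog 7 and without the 7 arrays were chosen after seeing the data. With 8 healthy dogs the intervals of the 41 log2 fold changes reach up to 1.06, so that smaller differences may not have been detected.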
